A study of Mus musculus with 32 samples.

Results

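The genes described here are 8 cytokine genes that act mainly on blood-forming and myeloid cells: the colony-stimulating factors Csf1, Csf2 and Csf3, the second ligand of the CSF-1 receptor Il34, and the IL-12 family genes Il12a, Il12b, Il23a and Ebi3. They were chosen by name and matched through their Ensembl identifiers, and all 8 of 8 were found among the 41388 genes counted in each of 32 RNA-seq libraries of cultured mouse sternal chondrocytes, the cells of cartilage. Wild type cells of the C57BL/6 strain, from newborn pups, were left Untreated or received FX11, an inhibitor of lactate dehydrogenase A, IL-1β, or both for 24 hours. Cells of the LDHA flox, NAMPT flox and NFKBIZ flox genotypes, whose alleles can be cut out by Cre recombinase, were infected with an adenovirus carrying GFP or Cre and then kept without or with IL-1β for 24 hours. Each of the 16 groups had 2 libraries.

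Ldha makes lactate from pyruvate, Nampt makes the precursor of NAD, and Nfkbiz encodes IκB-ζ, a nuclear cofactor of NF-κB. The alleles were cut in culture, in whichever cells took up the virus, and every floxed library received a virus while no wild type library did. No cells without a floxed allele received the Cre virus, so within 1 line the loss of the allele and the Cre virus itself cannot be told apart. The sample titles fall into 2 series of numbers, called library sets here, with 12 and 20 libraries. Set 1 holds 1 library of every wild type, LDHA flox and NAMPT flox group, and both libraries of each NFKBIZ flox group are in set 2. The labels do not say whether libraries of a group came from separate cultures or animals, so the p-values measure the spread between these libraries, which may be technical.

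CSF-1 and IL-34 bind the same receptor, Csf1r, and keep macrophages and osteoclasts alive. GM-CSF (Csf2) and G-CSF (Csf3) drive the production and activation of macrophages and neutrophils. The IL-12 family cytokines are pairs of chains that are shared: the p40 chain encoded by Il12b joins p35 (Il12a) as IL-12 or p19 (Il23a) as IL-23, and Ebi3 is the partner in IL-27 and IL-35. In bone and cartilage the family is known for its part in osteoclast formation and in inflammatory arthritis. In bulk RNA, fewer cells of a type and less RNA per cell cannot be told apart.

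Promoter sequences were found for 5 of the 8 genes in a RefSeq table of the build of the files (GRCm38.p6). Those of Csf1 and Il12b are shown because the levels of these genes moved in opposite directions with Cre under IL-1β. Each run is the 250 bases before the start site, 5′ to 3′ on the strand of the gene, with matches to 4 searched motifs in capitals. The Csf1 window is chr3:107760470-107760719 on the minus strand, and that of Il12b is chr11:44399813-44400062 on the plus strand.
Csf1: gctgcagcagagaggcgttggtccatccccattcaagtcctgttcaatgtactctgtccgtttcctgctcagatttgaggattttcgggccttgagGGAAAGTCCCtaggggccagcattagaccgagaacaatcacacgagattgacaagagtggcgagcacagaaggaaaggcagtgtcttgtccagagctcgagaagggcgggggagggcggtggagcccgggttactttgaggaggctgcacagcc
Il12b: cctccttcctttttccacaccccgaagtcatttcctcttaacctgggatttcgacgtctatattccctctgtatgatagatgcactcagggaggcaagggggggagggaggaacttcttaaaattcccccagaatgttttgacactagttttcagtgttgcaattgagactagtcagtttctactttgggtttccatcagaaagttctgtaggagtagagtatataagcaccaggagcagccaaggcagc
The capitals in Csf1, from base -154 to base -145 counted from the start site, match the NF-κB decamer consensus on 1 strand, a match held by 7.25% of the 32851 promoters in the table. The other motifs searched on both strands were TATAAA (12.4% of promoters), the AP-1 motif TGANTCA (6.75%) and the C/EBP motif TTGCNNAA (9.56%). None of the 4 motifs was found in the Il12b window, which says only that these letters are not in these 250 bases. The Ebi3 window also held the NF-κB decamer, and that of Csf2 the C/EBP motif. None of these motifs overlapped another.

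Csf1 (chromosome 3, 107741048 to 107760469, minus strand) was the most abundant of the 8 genes. Per length it lay between 44.8 and 112 RPKM in the 32 libraries, from 5064 to 23050 counts. Il34 (chromosome 8, 110741829 to 110805924, minus strand) came next among the genes seen in every library, at 0.892 to 8.69 RPKM.
Csf3 (chromosome 11, 98701263 to 98703629, plus strand) ranged from 0 to 11.9 RPKM and Il12b (chromosome 11, 44400063 to 44414033, plus strand) from 0 to 36.2 RPKM. In the floxed lines without IL-1β, Csf3 had at most 12 and Il12b at most 18 counts a library. Among the wild type libraries labelled without IL-1β, the set 2 library labelled FX11 had 420 counts of Csf3, near the highest level of the gene. Csf3 was above 1 CPM (reads scaled to the size of the library) in 14 of 32 libraries and Il12b in 11.
The partners of p40 were barely detected. Il12a had at most 8 counts in a library and none in 8 libraries, and Il23a at most 32 counts and none in 8. Csf2 had at most 5 counts and none in 20 libraries. Ebi3 had at most 50 counts and exceeded 1 CPM in 1 library. Total counts ran from 15830658 to 39959888 a library, at which a count of 0 still allows 0.0751 to 0.190 CPM, a limit that covers counting error only.

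Genes were tested where enough libraries of a fit exceeded 1 CPM. Of the 8, Csf1, Csf3, Il12b and Il34 passed in each floxed fit, and Ebi3 in addition in the wild type fit. Csf3 and Il12b passed in the floxed lines only through libraries with IL-1β. In NFKBIZ flox cells they passed only through those with GFP and IL-1β. Their p-values for IL-1β, and for Cre in NFKBIZ flox cells, take no account of that choice and are not separate support. The same holds for their interactions and for their differences between lines. Il12b in LDHA flox cells is in a similar place, at 0.803 and 0.926 CPM with Cre and IL-1β. Whether reads were counted by strand is not given in the sources used here, so counts of Il34, Csf2 and Ebi3 can include reads of the antisense genes that overlap them.

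**Figure D1:**
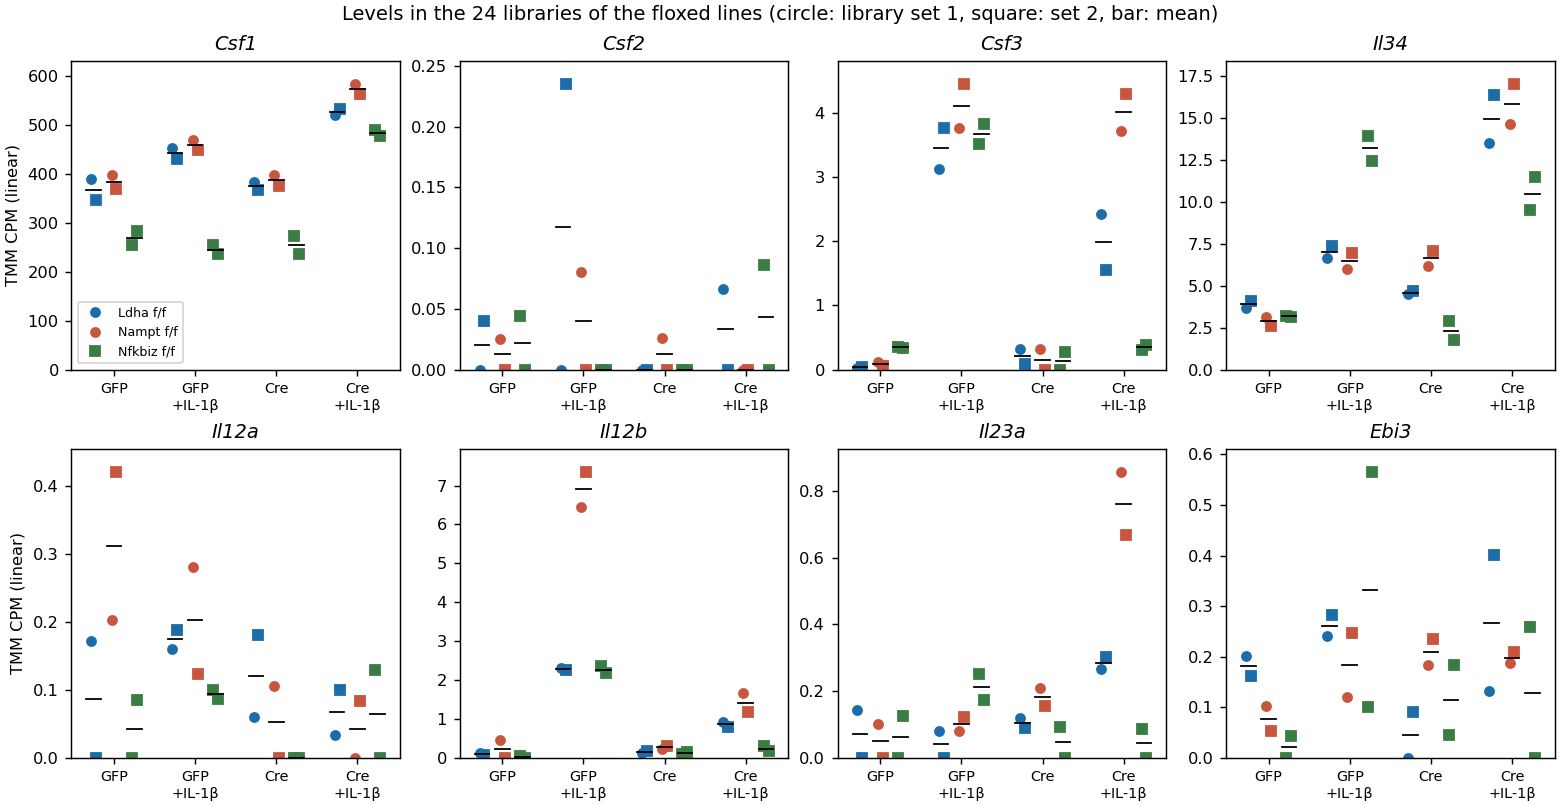
TMM-normalised CPM (linear axis, starting at 0) of the 8 genes in the 24 libraries of the floxed lines, by virus and IL-1β. Circles are library set 1, squares are set 2 and bars are the mean of 2 libraries. Csf3 and Il12b leave the bottom of their panels with IL-1β. With Cre and IL-1β, Il12b is lower than with GFP in every line, and Csf3 drops back in NFKBIZ flox cells. Csf1 in those cells is high only with both Cre and IL-1β.

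The libraries carried the chondrocyte genes, and those with Cre had less RNA of the floxed gene named in their label. A pair of wild type libraries ran against their labels in the IL-1β targets Mmp3 and Il6. All 9 chondrocyte markers were above 1 CPM on average, summing to 13814 to 96468 CPM. Ldha in the LDHA flox libraries was 869 to 1557 CPM with GFP and 72.9 to 118 CPM with Cre, and Nampt in the NAMPT flox libraries 54.6 to 68.4 CPM with GFP and 4.63 to 6.86 CPM with Cre. Nfkbiz in the NFKBIZ flox libraries under IL-1β was 229 and 235 CPM with GFP, and 29.5 and 32.3 CPM with Cre. Without IL-1β it was 16.1 and 17.0 CPM with GFP and 9.65 and 8.28 CPM with Cre. Under IL-1β, Nfkbiz was also lower with Cre in LDHA flox cells (177 and 164 against 69.7 and 66.9 CPM). The same held in NAMPT flox cells (202 and 204 against 67.7 and 60.8 CPM). Its fall under IL-1β is thus not particular to the NFKBIZ flox line. In set 2, the wild type library labelled IL-1b had 0.784 CPM of Mmp3 and 0 counts of Il6, whereas the library labelled FX11 had 2016 CPM of Mmp3 and 394 counts of Il6. Values of these 2 libraries run against their labels.
Markers of macrophages, cells known to make Il12b, summed to 15.2 to 66.3 CPM over 10 genes in the floxed lines and to 97.4 to 274 CPM in wild type cells. None of the 10 was at 0 over either set of libraries. In the floxed lines Ptprc, the leukocyte marker, was between 0.0834 and 1.21 CPM.

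IL-1β raised Csf3, Il12b and Il34 in the GFP-infected floxed cells, which asks what the cytokine does to the family in cells that keep the alleles. Csf3 had 1, 1, 5, 1, 8 and 8 counts in the 6 GFP libraries and 117, 80, 94, 72, 70 and 88 with IL-1β, in the order LDHA flox, NAMPT flox and NFKBIZ flox. The groups did not overlap, and the share of all genes without overlap was not computed. Means were 0.157 ± 0.151 and 3.74 ± 0.432 CPM (SD, n = 6).
The log2 fold change of Csf3 over the 12 libraries was 4.63 (SE 0.33, edgeR adjusted p = 2.81e-09). Csf3 and Il12b entered this fit through their libraries with IL-1β, so their p-values are not separate support for a rise. Il12b went from 4, 2, 18, 0, 1 and 0 counts to 86, 48, 161, 119, 47 and 50 counts, again with no overlap. Its level was highest in NAMPT flox cells with IL-1β, at 6.45 and 7.35 CPM, against 2.17 to 2.35 CPM in the other lines.
Il12b rose by 4.79 on the log2 scale (SE 0.36, edgeR adjusted p = 6.07e-09), and by 5.63 without the set 1 NAMPT flox library, which held 18 counts. Il34 rose about 2.55-fold, from 3.32 ± 0.502 to 8.89 ± 3.38 CPM (SD, n = 6), a log2 fold change of 1.35 (SE 0.16, edgeR adjusted p = 2.61e-06). Il34 rose in each of the lines, and the NFKBIZ flox cells reached 12.4 and 13.9 CPM, above the 6.01 to 7.34 CPM of the other lines.
Csf1, already abundant, changed little. Its levels were 340 ± 58.4 CPM without and 382 ± 107 CPM with IL-1β (SD, n = 6), and its log2 fold change of 0.14 (SE 0.06) missed the threshold (edgeR adjusted p = 0.0593). DESeq2 and limma called the Csf1 value, at adjusted p = 0.0442 and 0.0092, and it passed in edgeR on the set 1 libraries alone (0.23, adjusted p = 0.0029) and without either NFKBIZ flox library with IL-1β or the second without it (0.16 to 0.19, adjusted p from 0.0068 to 0.0447). The other 4 genes stayed low: Il12a had 0 to 8 counts without and 2 to 7 with IL-1β, and Ebi3 0 to 7 and 2 to 13. Il23a had 0 to 5 counts in both groups, and Csf2 0 or 1 without and 0 to 5 with IL-1β.
Of all genes tested, 56.2% passed at an adjusted p of 0.05 in this comparison, so a call was not rare. Macrophage markers summed to 15.2 to 26.3 CPM without and 33.0 to 66.3 CPM with IL-1β. Cd68 had medians of 8.44 and 17.2 CPM and Cd14 of 1.59 and 8.61 CPM. Ptprc had medians of 0.326 and 0.523 CPM, and Csf1r of 2.44 and 2.77 CPM. The medians of C1qa (0.319 and 0.192 CPM) and Fcgr1 (0.385 and 0.368 CPM) were lower with IL-1β, and those of the other markers in the list were higher. Their part in the result was not tested.

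By line, Csf1 rose with IL-1β in LDHA and NAMPT flox cells and did not pass in NFKBIZ flox cells, while Csf3, Il12b and Il34 rose in all of them. These differences between lines were not tested. Csf3 and Il12b again passed the filter only through libraries with IL-1β. With GFP, the log2 fold change of Csf1 was 0.26 (SE 0.08) in LDHA flox and 0.28 (SE 0.06) in NAMPT flox cells, with edgeR adjusted p = 0.0314 and 0.0054. The LDHA flox call ended without the set 1 library with IL-1β or without either set 2 library (adjusted p from 0.0815 to 0.162). For NFKBIZ flox cells it was -0.12 (SE 0.11, edgeR adjusted p = 0.44), from 5735 and 6716 to 5064 and 5424 counts.
Csf3 rose by 6.50, 5.30 and 3.40 on the log2 scale in LDHA, NAMPT and NFKBIZ flox cells (edgeR adjusted p = 5.56e-05, 0.000145 and 0.000888). The LDHA flox base of 2 counts over both libraries left its ratio between 27.4 and 833 by an exact 95% counting interval. Il12b rose by 4.45, 4.59 and 6.39 (edgeR adjusted p = 0.000123, 0.000151 and 7.01e-05). Its NFKBIZ flox base was 1 count over both libraries, and the interval of the ratio ran from 18.3 to 4159. Single GFP libraries of few counts set these values: without the set 1 NAMPT flox library Il12b gave 10.52 and Csf3 6.18, without the set 2 one Il12b gave 3.94, and without either NFKBIZ flox library Il12b gave 8.68 or 5.51. Il34 rose by 0.84, 1.16 and 2.06 (edgeR adjusted p = 0.0039, 0.000535 and 1.73e-05).
All genes tested passed in 27.9%, 35% and 26.8% of cases in the LDHA, NAMPT and NFKBIZ flox cells. With all 32 libraries in 1 model, in which the wild type libraries that run against their labels share the estimate of spread, 0, 0 and 1 of the 4 genes passed. Without those 2 libraries 3, 3 and 3 passed.

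With Cre under IL-1β the 4 genes moved in different directions, and differently by line. Il12b was lower with Cre than with GFP in every line. In LDHA flox cells it had 86 and 48 counts with GFP and 28 and 16 with Cre, in NAMPT flox cells 161 and 119 against 62 and 28, and in NFKBIZ flox cells 47 and 50 against 7 and 4. In CPM the groups did not overlap in any line, which 2 against 2 libraries can also give by chance. The share of all genes without overlap was not computed. In NFKBIZ flox cells Il12b and Csf3 had passed the filter only through the GFP libraries with IL-1β.
The log2 fold changes of Il12b were -1.36 (SE 0.39), -2.25 (SE 0.49) and -3.24 (SE 0.56), with edgeR adjusted p = 0.0223, 0.0031 and 0.0015. In LDHA flox cells the call ended when any of the 4 libraries was left out, with adjusted p from 0.0724 to 0.100, and with DESeq2 (adjusted p = 0.0723).
Csf3 fell in NFKBIZ flox cells and did not pass in the other lines. There it had 70 and 88 counts with GFP and 7 and 9 with Cre, a log2 fold change of -3.40 (SE 0.59, edgeR adjusted p = 0.0015). In LDHA flox cells it had 117 and 80 against 73 and 31 counts, with a log2 fold change of -0.75 (SE 0.39, edgeR adjusted p = 0.17). In NAMPT flox cells it had 94 and 72 against 139 and 103 counts, at log2 fold change -0.02 (SE 0.45, edgeR adjusted p = 0.98).
Csf1 rose in each of the lines. Its counts in NFKBIZ flox cells went from 5064 and 5424 to 11411 and 10991, or 245 ± 12.7 to 484 ± 8.83 CPM (SD, n = 2), a log2 fold change of 0.97 (SE 0.11, edgeR adjusted p = 4.85e-05). In LDHA and NAMPT flox cells the log2 fold changes were 0.27 (SE 0.08) and 0.34 (SE 0.06), with edgeR adjusted p = 0.0215 and 0.0011. The LDHA flox call of Csf1 also ended on leaving out any of its 4 libraries, with adjusted p from 0.0714 to 0.117.
Il34 rose in LDHA flox cells, from 249 and 156 to 409 and 326 counts, and in NAMPT flox cells, from 150 and 113 to 546 and 408. The log2 fold changes were 1.12 (SE 0.16, edgeR adjusted p = 0.000449) and 1.31 (SE 0.16, edgeR adjusted p = 6.41e-05). In NFKBIZ flox cells Il34 had 278 and 286 counts with GFP and 221 and 264 with Cre, a log2 fold change of -0.35 (SE 0.20, edgeR adjusted p = 0.27).
All genes tested passed in 34%, 48.4% and 17.4% of cases in LDHA, NAMPT and NFKBIZ flox cells. The macrophage markers under IL-1β summed to 41.5 and 42.5 CPM with GFP and 30.5 and 32.2 CPM with Cre in LDHA flox cells. In NAMPT flox cells the sums were 33.0 and 39.2 against 24.3 and 24.4 CPM, and in NFKBIZ flox cells 64.3 and 66.3 against 58.0 and 60.6 CPM. Their part in the fall of Il12b was not tested. The sum of 4 endothelial markers moved the other way, from 3.96 and 4.84 to 16.2 and 20.3 CPM in LDHA flox cells. In NAMPT flox cells it went from 5.77 and 5.87 to 22.9 and 25.1 CPM, and in NFKBIZ flox cells from 2.30 and 2.46 to 3.96 and 4.73 CPM. It was mostly Kdr, with medians over the lines of 1.67 CPM with GFP and 15.8 CPM with Cre. Pecam1 was lower with Cre, with medians of 1.61 and 0.729 CPM. Cdh5 had medians of 0.603 and 1.42 CPM, and Tie1 of 0.167 and 0.195 CPM. Their part in the rise of Il34 and Csf1 was not tested. Fibroblast markers, 5 genes, summed to 634 to 1060 CPM in the NFKBIZ flox libraries and to 2156 to 5243 CPM in those of the other lines. Under IL-1β they went from 3795 and 3964 CPM with GFP to 2519 and 2542 CPM with Cre in LDHA flox cells, from 3277 and 3342 to 2156 and 2194 CPM in NAMPT flox cells, and from 634 and 660.2 to 708 and 795 CPM in NFKBIZ flox cells. Their part in the differences between lines was not tested.

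**Figure D2:**
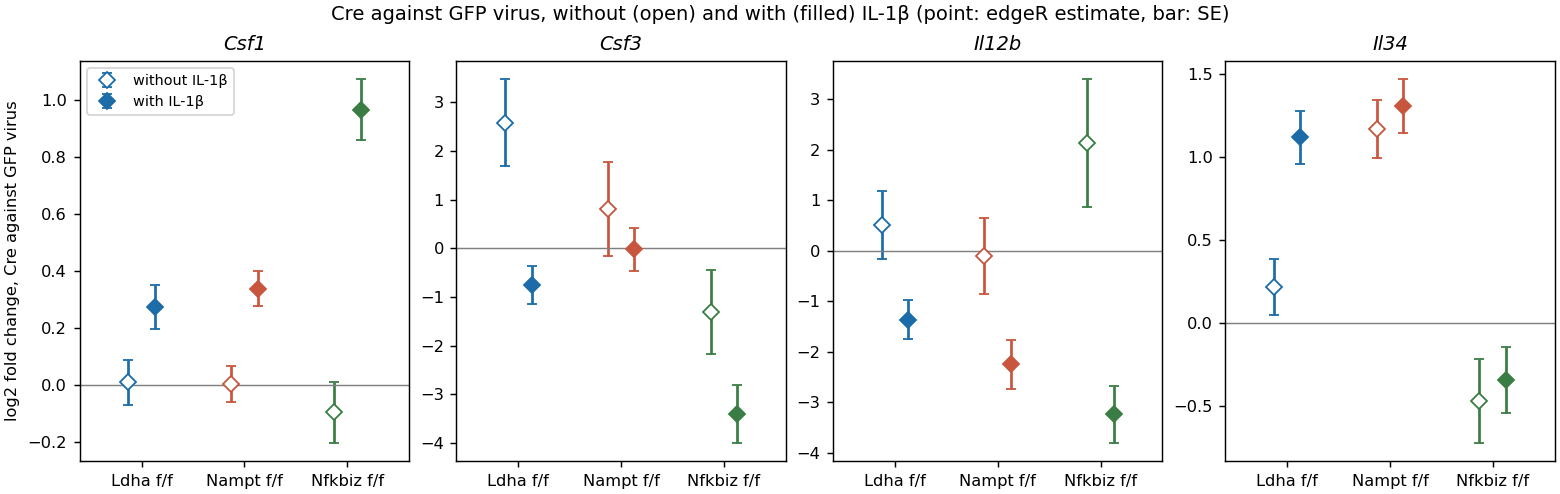
Log2 fold change of Cre against GFP virus in the 3 floxed lines, without (open) and with (filled) IL-1β; points are edgeR estimates from 2 against 2 libraries and bars are SE. Il12b lies below 0 with IL-1β in every line, Csf3 lies far below 0 only in NFKBIZ flox cells, and Il34 lies above 0 in LDHA and NAMPT flox cells with IL-1β.

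Without IL-1β, Cre changed 1 of the 4 genes in 1 line. Il34 rose in NAMPT flox cells from 124 and 50 to 235 and 182 counts, or 2.89 ± 0.366 to 6.63 ± 0.655 CPM (SD, n = 2), a log2 fold change of 1.17 (SE 0.17, edgeR adjusted p = 0.0012). No other value passed, and the background was 14.4% of genes in NAMPT, 5.52% in LDHA and 0.26% in NFKBIZ flox cells. In LDHA and NFKBIZ flox cells edgeR, DESeq2 and limma each called 0 of the 4. At an unadjusted p of 0.05, edgeR gave 1 in LDHA flox cells, Csf3 with 1 and 1 counts with GFP and 11 and 2 with Cre, and 0 in NFKBIZ flox cells.

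The Cre effects under IL-1β were compared directly between lines in a model of the 24 floxed libraries. Csf3 and Il12b entered it only through libraries with IL-1β, so their p-values are not separate support. Csf1 rose more in NFKBIZ flox cells than in LDHA flox cells by 0.73 on the log2 scale (SE 0.10, edgeR adjusted p = 1.09e-05) and than in NAMPT flox cells by 0.67 (SE 0.10, edgeR adjusted p = 1.96e-05). Csf3 differed by -2.60 (SE 0.73, edgeR adjusted p = 0.0097) and -3.34 (SE 0.71, edgeR adjusted p = 0.000718), that is, it was lowered more in the NFKBIZ flox line.
Il34 differed by -1.42 (SE 0.22) from LDHA flox and by -1.60 (SE 0.23) from NAMPT flox cells, with edgeR adjusted p = 3.58e-05 and 6.24e-06. For Il12b the differences of -1.84 (SE 0.75) and -0.93 (SE 0.73) did not pass (edgeR adjusted p = 0.0763 and 0.35), although DESeq2 called the first (adjusted p = 0.0411).
All genes tested passed in 27% of cases against LDHA flox and in 36.3% against NAMPT flox cells. Between LDHA and NAMPT flox cells 0.538% of genes passed. There edgeR and limma called 0 of the 4 genes, DESeq2 called neither Csf1 nor Il34 and gave no adjusted p for Csf3 and Il12b, and edgeR gave 0 at an unadjusted p of 0.05. The differences, LDHA minus NAMPT, were -0.05 (SE 0.10) for Csf1, -0.74 (SE 0.61) for Csf3, 0.91 (SE 0.63) for Il12b and -0.18 (SE 0.23) for Il34, so those of Csf3 and Il12b are loosely bounded. The Csf3 difference from LDHA flox cells lost its call without the set 1 library of the GFP group with IL-1β (-2.28, adjusted p = 0.0627) or that of the Cre group with IL-1β (-2.33, adjusted p = 0.0596).

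With Cre, IL-1β raised Csf1 and Il34 in every line, whereas Csf3 and Il12b did not pass in NFKBIZ flox cells. For Csf1 in NFKBIZ flox cells the rise was seen with Cre and not with GFP. In those cells Csf3 had 0 and 6 counts without and 7 and 9 with IL-1β (log2 fold change 1.30, SE 0.86, edgeR adjusted p = 0.3). Il12b had 2 and 3 counts without and 7 and 4 with IL-1β (log2 fold change 1.02, SE 0.82, edgeR adjusted p = 0.4).
The Csf3 value passed when the Cre library with 6 counts was left out (log2 fold change 5.98, adjusted p = 0.0463), so it turns on a handful of counts. In the same cells Csf1 rose by 0.94 (SE 0.11) and Il34 by 2.19 (SE 0.23), with edgeR adjusted p = 7.63e-05 and 4.56e-05. Csf1 went from 5954 and 5127 to 11411 and 10991 counts, and Il34 from 63 and 38 to 221 and 264.
In LDHA flox cells with Cre, Csf3 rose from 11 and 2 to 73 and 31 counts, a log2 fold change of 3.16 (SE 0.51, edgeR adjusted p = 0.000914). In NAMPT flox cells with Cre it rose from 12 and 0 to 139 and 103 counts, a log2 fold change of 4.48 (SE 0.60, edgeR adjusted p = 0.000137). Without the Cre library of 11 counts the first was 4.44, and without that of 12 or of 0 counts the second was 9.76 or 3.70. Il12b rose by 2.58 (SE 0.51) and 2.44 (SE 0.62), with edgeR adjusted p = 0.0033 and 0.0087, and Il34 by 1.74 (SE 0.16) and 1.30 (SE 0.16), with edgeR adjusted p = 2.64e-05 and 5.69e-05. In NAMPT flox cells the Il12b call ended without the set 1 Cre library (adjusted p = 0.0632) or without the set 1 Cre library with IL-1β (adjusted p = 0.0595).
Csf1 rose by 0.53 (SE 0.08) in LDHA flox and 0.62 (SE 0.06) in NAMPT flox cells with Cre, with edgeR adjusted p = 0.000555 and 1.60e-05. Of all genes tested, 35.9% passed in LDHA, 43.9% in NAMPT and 22.1% in NFKBIZ flox cells with Cre.

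**Figure D3:**
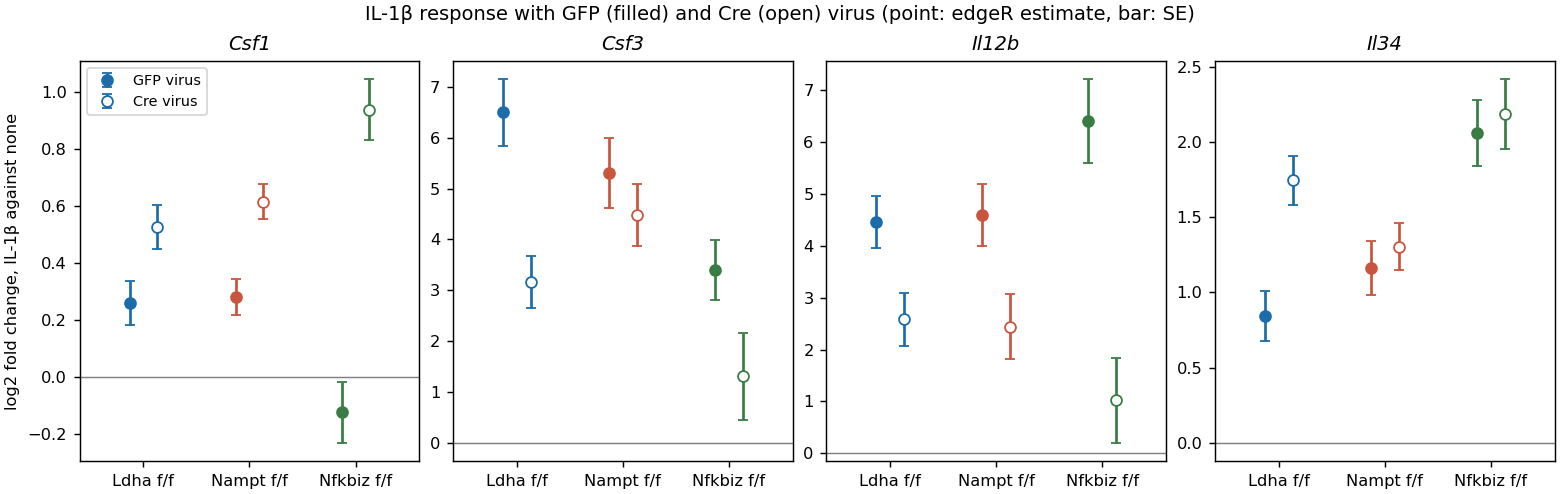
Log2 fold change of IL-1β against no IL-1β in cells with GFP (filled) or Cre (open) virus in each floxed line; points are edgeR estimates from 2 against 2 libraries and bars are SE. In NFKBIZ flox cells the Csf1 response moves from -0.12 with GFP to 0.94 with Cre, while those of Csf3 and Il12b move from 3.40 and 6.39 to 1.30 and 1.02.

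The change of the IL-1β response with Cre was tested as an interaction within each line. It passed for Csf1 in NFKBIZ flox cells (1.06 on the log2 scale, SE 0.15, edgeR adjusted p = 0.0011) and in NAMPT flox cells (0.34, SE 0.09, edgeR adjusted p = 0.0204). Without 1 library, the NAMPT flox value lay between 0.26 and 0.38 and lost its call in 5 of 8 cases.
Il12b passed in NFKBIZ flox cells at -5.37 (SE 1.4, edgeR adjusted p = 0.0452). It had entered the fit there only through the GFP libraries with IL-1β, so this p-value is not separate support. Its GFP base there was 1 and 0 counts, DESeq2 gave no adjusted p, and the call was lost in 7 of 8 cases with 1 library left out. In NAMPT flox cells the Il12b interaction was -2.15 (SE 0.92, edgeR adjusted p = 0.13), and it passed with the library set as a replicate block (-2.16, adjusted p = 0.0254), with DESeq2 (adjusted p = 0.0258) and without the GFP library of 18 counts (-8.08, adjusted p = 0.0044).
Il34 passed in LDHA flox cells at 0.90 (SE 0.23, edgeR adjusted p = 0.0332), where limma gave adjusted p = 0.0535 and 6 of 8 cases with 1 library left out lost the call. For NFKBIZ flox cells its interaction was 0.12 (SE 0.32, edgeR adjusted p = 0.89). The Csf3 interaction in LDHA flox cells was -3.34 (SE 0.97, edgeR adjusted p = 0.0549), on a GFP base of 1 and 1 counts, and passed with the library set as a replicate block (-3.36, adjusted p = 0.0279) and without the Cre library of 2 counts (-3.86, adjusted p = 0.0306). Without the Cre library of 11 counts it was -2.05 (adjusted p = 0.456), and limma gave adjusted p = 0.199. The Csf3 interaction in NFKBIZ flox cells was -2.09 (SE 1.15, edgeR adjusted p = 0.39), and 2.59 (adjusted p = 0.66) without the Cre library of 6 counts. The background was 11.5% of genes in LDHA, 22% in NAMPT and 5.19% in NFKBIZ flox cells.

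Il23a, the p19 chain of IL-23, stayed below the filter of the fits but was highest in NAMPT flox cells with Cre and IL-1β. It had 32 and 16 counts there, against 2 and 2 with GFP and IL-1β and 8 and 4 with Cre alone, and no library of these other groups reached those counts. The next highest group of the floxed lines was LDHA flox with Cre and IL-1β, at 8 and 6 counts against 3 and 0 with GFP and IL-1β. The NFKBIZ flox counts under IL-1β were 5 and 4 with GFP and 2 and 0 with Cre.
These counts are a description with no test, since Il23a was picked out for being high in that group.
Csf2 gave no such pattern at this depth, and Il12a had fewer counts in sum with Cre. Csf2 reached 5 counts in 1 LDHA flox library with GFP and IL-1β, whose partner library had 0, and 5 counts in the set 1 wild type library with IL-1b + FX11. Il12a was highest in NAMPT flox cells with GFP, at 8 and 8 counts, and had 2 or fewer counts in 15 of the 24 floxed libraries. Over the floxed lines it summed to 24 counts with GFP and 23 with GFP and IL-1β. With Cre it summed to 10 counts, and with Cre and IL-1β to 8, again a description with no test. Ebi3 in the floxed lines had at most 13 counts, in 1 NFKBIZ flox library with GFP and IL-1β whose partner had 2.

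In wild type cells Il12b reached its highest levels, though in the set 1 libraries alone. There it had 10 counts Untreated, 1 with FX11, 1118 with IL-1β and 2797 with IL-1β and FX11, or 0.295, 0.0278, 30.9 and 71.3 CPM. In set 2 the counts were 1 Untreated, 26 in the library labelled FX11, 4 in that labelled IL-1b and 89 with both.
Csf3 had 5, 11, 607 and 382 counts in the same order in set 1. In set 2 it had 0, 420, 6 and 286. Il34 had 110, 143, 332 and 495 counts in set 1 and 77, 294, 82 and 366 in set 2. In both genes, and in Il12b, the set 2 libraries labelled FX11 and IL-1b stand in reverse order to those of set 1, as they do in Mmp3.
Csf1 was between 7272 and 23050 counts, at 271 to 335 CPM in the first 3 set 2 libraries and 467 to 587 CPM in set 1 and in the set 2 library with both agents. Ebi3 was higher than in the floxed lines in set 2, with 50, 26, 24 and 15 counts Untreated, with FX11, with IL-1b and with both, against 7, 4, 20 and 19 in set 1. Markers of neutrophils, 5 genes, summed to 8.79 to 31.4 CPM in wild type and 1.52 to 15.5 CPM in floxed libraries, and Lyz2, a myeloid lysozyme, was 51.3 to 132 CPM against 1.94 to 8.37 CPM. The part of these cells in the wild type levels was not tested.

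**Figure D4:**
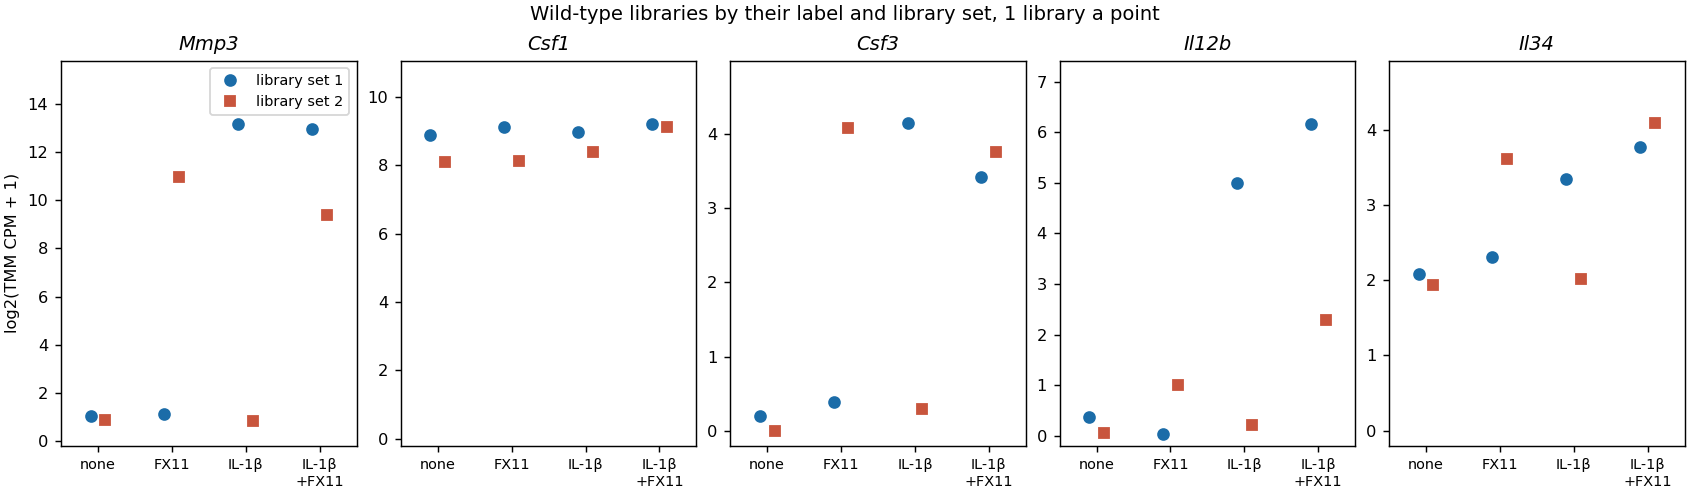
Levels of the IL-1β target Mmp3 and of Csf1, Csf3, Il12b and Il34 in the 8 wild type libraries, as log2(TMM CPM + 1), by the treatment on the label; circles are library set 1 and squares are set 2. In set 2 the library labelled FX11 is high and that labelled IL-1b is low in Mmp3, Csf3 and Il34.

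The fit of the 8 wild type libraries as labelled called no gene in any comparison, the background being 0% for IL-1β, 0% for IL-1β plus FX11 against Untreated, 0% for FX11 alone and 0% for FX11 added to IL-1β. At an unadjusted p of 0.05, edgeR gave 153, 860, 68 and 102 genes in the same order. DESeq2 called 6, 153, 2 and 1 genes and limma 0 in each, and neither called any of the 5 tested members of the family, although DESeq2 gave no adjusted p for Ebi3 with IL-1β plus FX11.
For IL-1β plus FX11 against Untreated, whose 4 libraries do not include the 2 in doubt, the log2 fold changes were 7.08 (SE 2.74) for Csf3, 7.73 (SE 2.93) for Il12b, 2.25 (SE 0.68) for Il34 and 0.63 (SE 0.43) for Csf1. The spread in that fit came from all 8 libraries, and edgeR adjusted p was 0.87, 0.87, 0.87 and 0.93. Without the set 1 Untreated library Csf3 was 11.43 and Csf1 1.09, without the set 2 Untreated library Csf1 was 0.29, and without the set 1 library with both agents Il12b was 4.49. In 1 model of the 30 libraries without the 2 in doubt, the same 4 values had edgeR adjusted p = 1.86e-06, 2.40e-05, 1.71e-07 and 0.0087.
The effect of FX11 on the family under IL-1β could be read in 1 set only. In set 1, Il12b was higher with both agents than with IL-1β alone (71.3 against 30.9 CPM), Csf3 lower (9.73 against 16.8 CPM) and Il34 higher (12.6 against 9.17 CPM). These are single libraries with no replicate check.

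The receptors of these cytokines and their signalling chains were read in the same libraries. Il6st, the gp130 chain used by IL-27 and IL-35, averaged 341 to 363 CPM with GFP and 881 to 1024 CPM with GFP and IL-1β, and Csf2ra, the GM-CSF receptor alpha chain, 35.6 to 58.6 CPM in these groups. Csf1r, the receptor of CSF-1 and IL-34, averaged 1.54 to 4.33 CPM over the 12 floxed groups, and 10.2 and 19.3 CPM in the 2 wild type groups without a library in doubt, where macrophage markers were higher too. Il23r averaged at most 0.0295 CPM in any group.
Of 26 receptor and signalling genes, 20 were tested in the 12 GFP libraries. With IL-1β 14 rose, 1 fell and 5 did not pass, with a median log2 fold change of 0.42 against -0.01 over all genes, of which 28% rose and 28.3% fell. The smallest adjusted p values were those of Socs3, a feedback inhibitor of cytokine receptors (log2 fold change 1.52, SE 0.04), Il6st (1.43, SE 0.05), Il12rb1, the receptor chain that binds p40 (2.22, SE 0.16), and Sdc1, a proteoglycan that binds IL-34 (0.57, SE 0.05).
Csf2rb, the beta chain shared by GM-CSF, IL-3 and IL-5, rose by 2.07 (SE 0.29) and Csf2ra by 0.22 (SE 0.05). Csf1r did not pass (0.18, SE 0.23, edgeR adjusted p = 0.53), nor did Il12rb2, the other chain of the IL-12 receptor (0.31, SE 0.29, edgeR adjusted p = 0.39). Socs2, another feedback inhibitor, fell by 0.24 on the log2 scale (SE 0.06).
With Cre under IL-1β, 3 of 23 tested genes rose and 7 fell in LDHA flox cells, 5 of 22 rose and 7 fell in NAMPT flox cells, and 0 of 20 rose and 7 fell in NFKBIZ flox cells. Of all genes tested, 16.9% rose and 17% fell in LDHA, 25% and 23.4% in NAMPT and 8.16% and 9.2% in NFKBIZ flox cells. Il6st fell in each line, by 1.10 (SE 0.07), 1.19 (SE 0.06) and 0.48 (SE 0.09) on the log2 scale. Socs3 fell by 0.58 (SE 0.09), 0.48 (SE 0.09) and 1.09 (SE 0.13). Jak2, a kinase of these receptors, fell by 0.43 (SE 0.10), 0.49 (SE 0.10) and 1.04 (SE 0.10). Sdc1 rose by 0.43 (SE 0.07) in LDHA and 0.56 (SE 0.06) in NAMPT flox cells. Il12rb2 fell in NAMPT flox cells by 1.74 (SE 0.37).
Of 10 other hematopoietic growth factor genes 9 were in the files and 2 were tested in the GFP libraries, both of which rose. Kitl, stem cell factor, rose by 1.30 (SE 0.06) and Tslp, an epithelial cytokine of lymphocytes and dendritic cells, by 1.73 (SE 0.23) with IL-1β. With Cre under IL-1β, Kitl fell in each line, by 1.56 (SE 0.11), 2.17 (SE 0.13) and 0.72 (SE 0.15) in LDHA, NAMPT and NFKBIZ flox cells.

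Among 14255 genes with a mean of at least 1 CPM, those with the most similar pattern over the 32 libraries were found by Pearson's r of log2(CPM + 1), as a description in which the points share libraries and depth. For Csf3 these were Slc11a2, an iron transporter (r = 0.963), Epas1, a hypoxia-inducible factor (0.954), and Cxcl2, a neutrophil chemokine (0.944). For Il34 they were Bid, an apoptosis gene (0.950), Nfkbia, the inhibitor IκBα (0.928), and Cx3cl1, a chemokine (0.927). Over the 24 floxed libraries, which leave out the 2 in doubt, these 6 values lay between 0.915 and 0.962.
For Il12b they were Nadk, the kinase of NAD (0.892), Aldh3a1, an aldehyde dehydrogenase (0.889), and Nfkb1, the p105 subunit of NF-κB (0.880), with 0.808, 0.784 and 0.851 over the floxed libraries. Within the family, over the 24 floxed libraries, Csf3 and Il12b were most alike (r = 0.881), Csf3 and Il34 less so (0.675), and Csf1 and Il12b least (0.280).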

How the data were processed

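RNA-seq was made from 32 libraries of ribosome-depleted RNA, 2 in each of 16 groups. The authors deposited raw counts per gene, the whole-number reads that featureCounts assigned on GRCm38 after STAR alignment, with CPM and RPKM columns that the authors computed from these counts and the gene length. The submitters' processing notes name STAR 2.0.4b and featureCounts 1.45. Here the counts were tested, and the deposited CPM and RPKM were used only to check them. The labels placed every library in its group, and no library was left out of the main fits.

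Of 41388 genes, 40254 were matched to a symbol and 355 rRNA genes were left out. Levels are TMM-normalised CPM over all 32 libraries, and RPKM is that CPM per kilobase of exonic length. Tests used edgeR 4.0.16 quasi-likelihood fits (R 4.3.3) per line of 8 libraries, on 12 GFP libraries (line and library set as terms) and on 24 floxed libraries (library set as a term), with genes above 1 CPM in at least the smallest group size minus 1 libraries, Benjamini-Hochberg adjustment over all genes tested and a threshold of 0.05. The standard error is the size of the log2 fold change over the root of F. Alternatives were RLE size factors, DESeq2 1.42.0, limma 3.58.1 (voomWithQualityWeights), other filters, a prior count of 0.5 in place of 0.125, the library set as a replicate block, each library left out, and 1 model of all 32 libraries. Leaving out the 2 wild type libraries that run against their labels, and 1 model of the other 30, were added after the data were seen. A group left with 1 library was assumed to vary like the others. The fits recovered changes put into simulated counts of well-counted genes with a fixed spread. That check does not cover genes of few counts, such as Csf3 and Il12b without IL-1β. Genes named are the 8 members, the deleted genes, Mmp3 and Il6, the receptors of members and the called genes of the receptor and growth factor lists with the smallest adjusted p (up to 4 a direction), and the 3 genes most like each member tested in the GFP libraries, of which those for Csf1 are not reported here. Ptprc, Cd68, Cd14, Itgam, Aif1, C1qa, Fcgr1, Kdr, Pecam1, Cdh5, Tie1 and Lyz2 were named after their values were seen. The members, lists and tests were chosen with earlier results of these data known. Flt3l was not analysed here.

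Between the groups of a line, the differences of set 1 and set 2 libraries correlated with r from 0.350 to 0.578 in LDHA flox, 0.361 to 0.499 in NAMPT flox and -0.153 to 0.733 in wild type cells, over genes above 1 CPM in every library of the line. Depth was 23783890 to 39959888 counts in set 1 and 15830658 to 29248326 in set 2, and intervals and floors cover counting error only.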

Additional observations from a re-analysis of the deposited data

Results flagged for a closer look

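Several responses differed between lines or with Cre by a direct test. Csf3 and Il12b entered these fits only through libraries with IL-1β, so their values are not separate support. The interaction of Cre and IL-1β passed for Csf1 in NFKBIZ flox (1.06 on the log2 scale) and NAMPT flox cells (0.34), for Il34 in LDHA flox cells (0.90) and for Il12b in NFKBIZ flox cells (-5.37). Apart from that of Csf1 in NFKBIZ flox cells, these calls were lost in most fits with 1 library left out. That of Il12b rested on a GFP base of 1 count over both libraries. The Cre effect under IL-1β in NFKBIZ flox cells differed from that in LDHA flox and NAMPT flox cells for Csf1 (0.73 and 0.67), Il34 (-1.42 and -1.60) and Csf3 (-2.60 and -3.34).

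Single libraries stood far from the others in 2 cases. Il12b was 0.457 CPM (18 counts) in the set 1 NAMPT flox library with GFP, among 6 GFP libraries of which the others were at or below 0.115 CPM. Csf2 was 0.235 CPM (5 counts) in the set 2 LDHA flox library with GFP and IL-1β, among 6 such libraries of which 4 had 0 counts. Some groups would be marked by chance alone.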

How the results depend on the processing

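Over the named fold changes, 922 alternative values with an adjusted p were computed for 65 results, of which 819 kept their direction and their side of the threshold, 73 lost the call, 23 gained it and 7 changed sign. Counts below are of the 8 members called.

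With all 32 libraries in 1 model, calls for IL-1β with GFP fell from 4 to 0 in LDHA flox, from 4 to 0 in NAMPT flox and from 3 to 1 in NFKBIZ flox cells, and with Cre from 4 to 1 in LDHA flox and from 4 to 2 in NAMPT flox cells. For Cre under IL-1β they fell from 3 to 0, 1 and 1 in LDHA, NAMPT and NFKBIZ flox cells, for Cre alone in NAMPT flox cells from 1 to 0, and for the interaction from 1, 1 and 2 to 0, 0 and 0, while wild type cells with IL-1β plus FX11 went from 0 to 3. In the model of 30 libraries, chosen after seeing the data, Cre under IL-1β in LDHA flox cells had 1, the interactions 0, 0 and 1, wild type IL-1β 3 and IL-1β plus FX11 4. That model also ended the calls of Il12b with Cre under IL-1β in NFKBIZ flox cells (adjusted p = 0.0614), of Csf1 with Cre under IL-1β in NAMPT flox cells (0.132), of Il12b with IL-1β and Cre in LDHA and NAMPT flox cells (0.146 and 0.0800) and of Csf1 with IL-1β and GFP in the same lines (0.280 and 0.219). The cause was not tested.

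The interaction count was 0 with limma, 2 with no filter and 3 with the library set as a replicate block in LDHA flox cells, 2 with DESeq2, with no filter and with the replicate block in NAMPT flox cells, and 1 with DESeq2 in NFKBIZ flox cells, where it gave no adjusted p for Il12b. The block gained Csf1 and Csf3 in LDHA flox and Il12b in NAMPT flox cells and changed no other call of a member. Replicate numbers were given in sample order and pair no libraries, so the library set was the block; NFKBIZ flox libraries are all in set 2 and had no such fit. Leaving out 1 library gave 0 to 1, 0 to 1 and 1 to 2 interactions, and 1 call (1 to 1) for Cre under IL-1β in LDHA flox cells.

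Of values that did not pass, Csf3 with Cre under IL-1β in NAMPT flox cells was 0.015 with no filter and -0.18 to 0.11 with 1 library left out, Csf1 in LDHA minus NAMPT flox cells -0.11 to 0.0019, the Csf3 interaction in NFKBIZ flox cells -3.07 to 2.59 and that of Il34 -0.17 to 0.53. Depth limits Csf2, Il12a, Il23a and Ebi3, whose counts allow few comparisons.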
